A study of Homo sapiens with 21 samples.

Results

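The Notch ligands JAG1, JAG2 and DLL1, the receptors NOTCH1, NOTCH2 and NOTCH3, and the Notch targets HES1, HES4, HEY1 and NRARP were followed through a time course of TGFβ treatment. These 10 genes were chosen by symbol from the 23201 genes of the series. No rule on their values was used, but earlier results of these data were known. All 10 were present and all 10 were among the 13343 genes tested. RNA came from HMLE cells, an established, immortalized mammary epithelial line of human origin, seeded at equal density. The untreated cells (d0) were compared with the same line on days 1, 4, 7, 10, 15 and 20 of TGFβ, a cytokine that induces the epithelial to mesenchymal transition (EMT). The series holds 21 libraries, 3 at each of 7 timepoints. All treated cells were set against the d0 libraries, since the series holds no untreated cells of later days. Days of TGFβ and days in culture therefore cannot be told apart. The study asked how the transcriptome changes as EMT proceeds, in a single cell line, and the dose of TGFβ was not given in the sources used here.

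Notch signalling runs between neighbouring cells. A ligand of the Jagged or Delta-like family on the sender cell binds a NOTCH receptor on the receiver cell, proteases cut the receptor, and the freed intracellular domain enters the nucleus. There it joins the DNA-binding protein RBPJ and a Mastermind coactivator (MAML genes) and switches on targets such as the HES and HEY repressors and NRARP, a feedback inhibitor of the pathway. In the mammary gland the pathway is known for its part in the choice between basal and luminal fates, and JAG1 is a known TGFβ target in epithelial cells.

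Values are normalised read counts, the reads of a gene divided by 1 size factor per library. Recovered read totals lay between 18847917 and 22667754 per library. Differences are log2 fold changes on log2(value + 1) from a limma fit over all 7 timepoints, and a gene is called when its Benjamini-Hochberg adjusted p over the 13343 genes is under 0.05. Basal epithelial markers were present at every timepoint. The summed basal marker level ran from 222757 in the lowest library at d10 to 754678 in the highest at d7, and the summed mesenchymal level rose from 9285 to 9682 at d0 to 595208 to 613196 at d20. Most of the mesenchymal sum at d20 was FN1, with a mean of 539309, against 63815 for VIM, 782 for CDH2 and 433 for ZEB1. All 4 mesenchymal markers were called at least 2-fold higher at d20 than at d0. Luminal epithelial markers were present too, with a summed level from 11499 in the lowest library at d7 to 16822 in the highest at d0. Endothelial and leukocyte markers were low but not all absent. Of the endothelial markers CDH5 had at most 3 reads in any library, whereas PECAM1 held 39.2 to 43.3 at d0 and KDR 33.6 to 50.9 at d0 and 253 to 273 at d15. Of the leukocyte markers PTPRC and CD3E had at most 3 reads, whereas CD68 held 342 to 818. The third d7 library in file order stood apart. It differed from the other d7 libraries by a root mean square of 0.47 and 0.46 on the log2 scale, against 0.21 to 0.24 for all other pairs within a timepoint, and d7 results that it changes are given with and without it.

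Over the time course, JAG1 and HES1 were higher and NRARP was lower than in untreated cells on every treated day. From d7 to d20, JAG2, NOTCH1, NOTCH3, HES1 and HES4 went down, up and down again, as did 24.6% of all genes tested. On at least 1 treated day 10 of the 10 members were called, as were 96.8% of all genes tested, a share close to that of the members. Higher on all 6 treated days were 5 members, JAG1, DLL1, NOTCH2, HES1 and HEY1 (14.3% of all genes tested), and lower on all 6 days was NRARP, 1 member (8.26%). JAG1, HES1 and NRARP kept these calls under the alternative settings, other than a 2-fold minimum, and with each of the 21 libraries left out in turn. DLL1 and HEY1 lost a call in several of them, and NOTCH2 with rescaling to the same total or quantile normalization. The count of 5 fell to 2 with libraries rescaled to an equal total, to 3 by edgeR and by DESeq2, and to 3 without the first d0, the third d1, d4, d10 or d15 library, or the first or second d20 library. Rescaling to the same total moved the all-gene median of the log2 fold change to between -0.20 and -0.14. The values of DLL1 at d4 and d20 and of NOTCH2 at d4 were no larger than the shift of that day.

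The members went in both directions against d0 on every day, and the higher ones outnumbered the lower ones each time, most on d7 and d15, though not under every scaling. With libraries rescaled to an equal total, 3 were higher and 4 lower on d1 and 4 and 4 on d10, with JAG2 among the lower on both days. Under that scaling 2436 of all 13343 genes tested were higher and 6692 lower on d1, and 2864 and 6741 on d10. With the values as deposited, 5 members were higher and 3 lower on d1, where 31.3% of all genes tested were called higher and 28.5% lower. The counts were 6 and 2 on d4 (all genes, 36.9% and 35.3%) and 8 and 1 on d7 (34.6% and 32.6%). On d10, 5 and 3 members were called (37% and 30.7%), on d15 8 and 1 (39.2% and 37.3%), and on d20 5 and 3 (32.5% and 30.2%). Of the 10 members, 8 were higher on some treated day (63.2% of all genes), 4 were lower on some treated day (62.4%), and 2, JAG2 and NOTCH1, were both (28.7%). Without the third d7 library 3 members were both, NOTCH3 joining, with 34.6% of all genes. The same 3 were both with library weights.

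Larger changes were fewer. With at least a 2-fold change required as well, 1 member was higher and 2 lower on d1 (6.47% and 3.87% of all genes), 3 and 1 on d4 (9.68% and 5.03%), and 4 and 1 on d7 (8.79% and 2.93%). On d10 the counts were 1 and 3 (6.94% and 7.34%), on d15 5 and 1 (11.7% and 8.66%), and on d20 2 and 2 (7.51% and 4.72%). The median log2 fold change over the 10 members was 0.71 at d7 and 0.91 at d15, with medians of all genes of 0.0039 and 0.0149. It was lower on the other days, with 0.08 on d1, 0.21 on d4, 0.36 on d10 and 0.10 on d20. Without the third d7 library 9 members were higher and 1 lower on d7 (36.8% and 34.3% of all genes), NOTCH3 joining, the 2-fold counts were again 4 and 1, and the median was 0.67. All 6 comparisons share the d0 libraries. The count lower at d4 was 1 without the second d0 or the first d4 library, and the count lower at d15 was 2 without the first or the third d7 library, NOTCH3 being the gene that joined without the third. Of all genes called at least 2-fold, 62.5%, 65.8%, 75.0%, 48.6%, 57.5% and 61.4% were higher from d1 to d20, and with libraries rescaled to an equal total 47.6%, 48.3%, 59.2%, 34.8%, 45.0% and 47.6%.

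**Figure D1:**
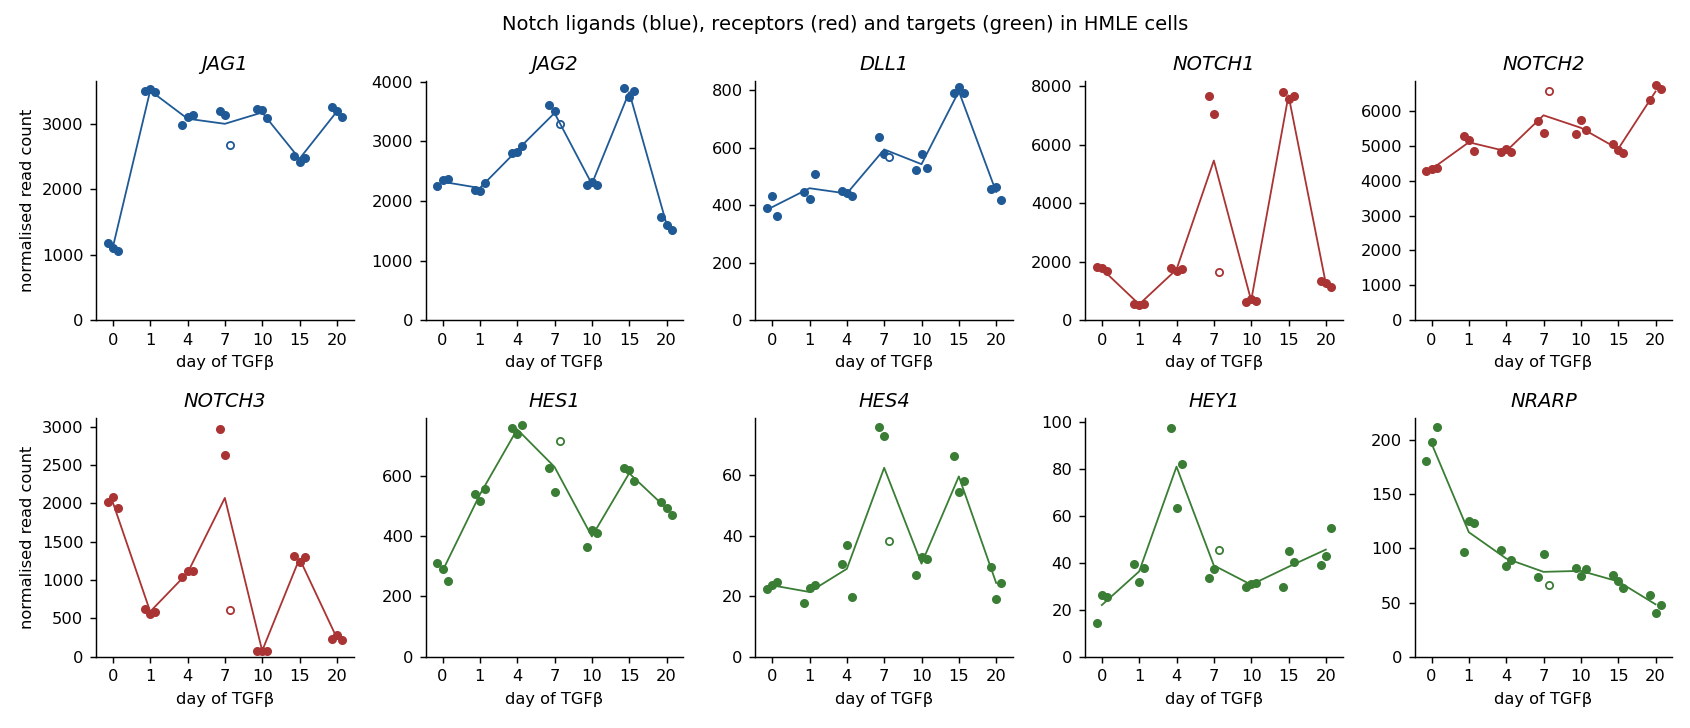
Normalised read count (vertical axis, from 0) of the 10 Notch genes by day of TGFβ (horizontal axis, timepoints evenly spaced). Points are single libraries, 3 per timepoint, the open point is the third d7 library and the line joins the means. JAG1 stepped up from about 1116 at d0 to 3514 at d1, NRARP declined from 197 to 48.4, and NOTCH1 rose at d7 and d15 and was low at d1 and d10.

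Among the ligands, JAG1 had the largest and most lasting change. Its values at d0 were 1181, 1111 and 1056, and at d1 they were 3514, 3536 and 3490.3. The mean thus went from 1116 ± 62.8 (SD, n = 3) to 3514 ± 23.0, a log2 fold change of 1.66 (SE 0.05, limma adjusted p = 5.41e-17). All 18 treated libraries lay above all 3 untreated ones, since the lowest treated value was 2421, at d15. From d4 to d20 the mean was 3084 ± 80.4, 3005 ± 282, 3179 ± 79.0, 2471 ± 46.4 and 3193 ± 76.1, in the order of the days. The log2 fold change stayed between 1.15 (d15) and 1.66 (d1). JAG1 was lower at d4 than at d1 by a log2 fold change of -0.19 (adjusted p = 0.00308), lower at d15 than at d10 by -0.36 (adjusted p = 1.46e-06) and higher again at d20 by 0.37 (adjusted p = 1.47e-06). The levels at d20, d10, d4 and d7 did not differ between neighbours in the order of means. Without the third d7 library the d7 value was 1.51 in place of 1.43.

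JAG2, the second Jagged ligand, moved in both directions. Its values at d0 were 2245, 2352 and 2369.6, and on d7 3619, 3510.3 and 3300.4. They were 2262, 2321 and 2273 on d10, then 3895, 3748 and 3840.0 on d15, and 1728, 1604 and 1512 on d20. The d15 libraries lay above and the d20 libraries below all 3 untreated ones. JAG2 was higher at d4 (log2 fold change 0.30), d7 (0.58) and d15 (0.72, SE 0.04, limma adjusted p = 2.74e-12) and lower at d20 (-0.53, adjusted p = 1.08e-09). At d1 and d10 the values were -0.07 and -0.02 and did not pass the test, with 95% intervals from -0.16 to 0.03 and from -0.11 to 0.07. With libraries rescaled to an equal total they were -0.26 and -0.25 and passed. The mean fell from 3828 ± 74.1 at d15 to 1615 ± 108 at d20, a log2 difference of 1.25 (SE 0.04, adjusted p = 7.85e-16).

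DLL1, a Delta-like ligand, peaked at d15. Its values were 389, 431 and 361 at d0 and 791, 810.4 and 790.4 at d15, a log2 fold change of 1.02 (SE 0.07, limma adjusted p = 3.30e-11), and no d15 library overlapped with those of another timepoint. It was higher by 0.60 at d7 and by 0.47 at d10. The differences at d1 (0.22, adjusted p = 0.0121), d4 (0.17, adjusted p = 0.0443) and d20 (0.18, adjusted p = 0.033) were small. With libraries rescaled to an equal total they were 0.03, -0.03 and -0.02 and none passed. The d1 call was also lost without the third d0 (0.16) or the third d1 library (0.14), the d4 call without any 1 of 9 libraries, among them the third d0 (0.11), and the d20 call without the first or the third d0 library or the first or second d20 library (0.12 to 0.18). FAM120B overlaps DLL1 on the opposite strand and had a mean value of 988, and whether the counting used strand was not given in the sources used here.

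Per kilobase of the longest GENCODE 29 protein-coding transcript, the rank of the Jagged ligands changed with the days. The ratio of JAG1 to JAG2 within a library was 0.438, 0.464 and 0.517 at d0 and 1.49, 1.58 and 1.60 at d1. JAG1 was thus the lower of both before treatment and the higher at d1. From d4 to d20 the middle library gave 1.06, 0.867, 1.36, 0.634 and 1.96. JAG2 was the more abundant ligand at d0, d7 and d15, and JAG1 at d1, d4, d10 and d20, with all 3 libraries on the same side of 1 at every timepoint. DLL1 was the lowest of the 3 ligands throughout, from 124 per kilobase at d0 to 251 at d15.

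**Figure D2:**
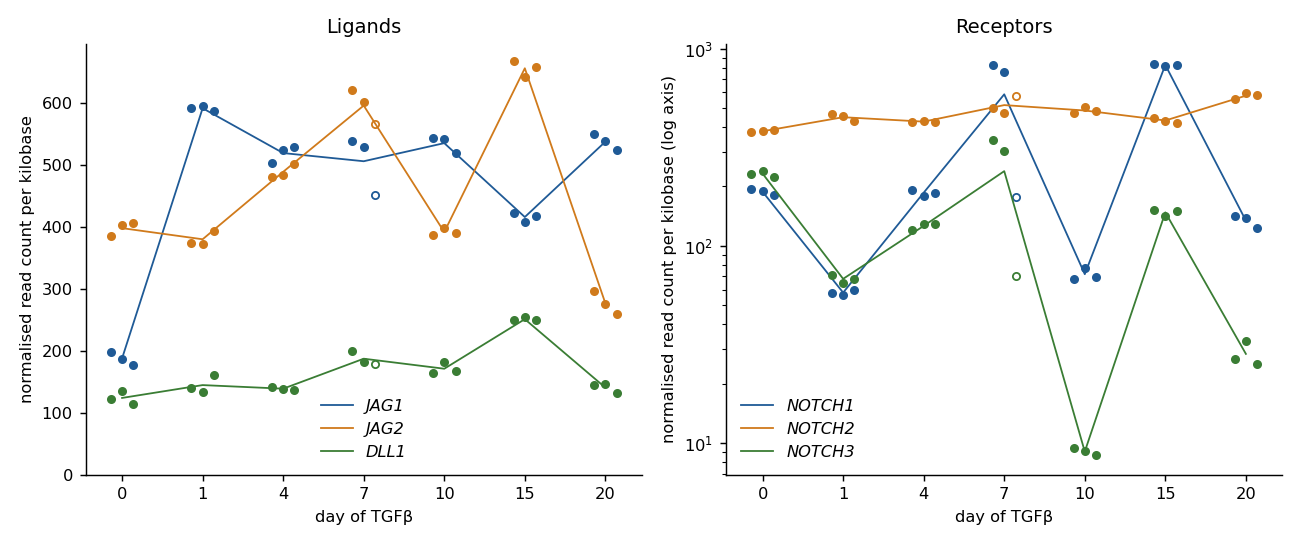
Normalised read count per kilobase of transcript for the ligands (left, axis from 0) and the receptors (right, log axis) by day of TGFβ, timepoints evenly spaced. Points are single libraries, the open points are the third d7 library and lines join the means. JAG1 and JAG2 cross several times, NOTCH2 stays between 381 and 577 per kilobase, and NOTCH3 drops to 9.06 at d10.

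Among the receptors, NOTCH2 changed little while NOTCH1 and NOTCH3 swung widely. NOTCH1 values were 1800.3, 1768 and 1679 at d0 and 534, 526 and 557 at d1, a log2 fold change of -1.70 (SE 0.32, limma adjusted p = 0.00011). At d4 they were 1791, 1669 and 1731, with a mean of 1730.4 ± 61.0 against 1749 ± 62.9 at d0. NOTCH1 thus lay below every untreated library at d1 and among them at d4, where the log2 fold change was -0.02, with a 95% interval from -0.68 to 0.65. At d7 the first and second libraries held 7660.4 and 7044 and the third 1655. At d10 the values were 635, 720.0 and 650.3 and at d15 7807, 7559.6 and 7673. NOTCH1 was higher at d15 by 2.13 (adjusted p = 3.41e-06), 4.39-fold, and lower at d10 by -1.39 (adjusted p = 0.000637).

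From d10 to d15 NOTCH1 rose 11.5-fold, a log2 change of 3.52 (limma adjusted p = 1.72e-09), and from d15 to d20 it fell by 2.62 on the log2 scale (adjusted p = 2.28e-07). The d20 values were 1319.7, 1284 and 1144, all below the untreated ones, with a log2 fold change of -0.49 that did not pass the test (adjusted p = 0.192). The spread of the third d7 library entered this estimate. Without it the standard error of NOTCH1 went from 0.32 to 0.05, and the same -0.49 passed (adjusted p = 3.08e-12). At d7 the log2 fold change was 1.35 (adjusted p = 0.000844) with all libraries and 2.07 without the third. In a fit of d7 and d0 alone the 1.35 did not pass (adjusted p = 0.0573).

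NOTCH3 had the deepest decrease of the members. Its values were 2013, 2087 and 1940.2 at d0, 617, 562 and 589 at d1, 81.6, 78.7 and 75.3 at d10, and 232, 286 and 218 at d20. The d10 libraries did not overlap with any other timepoint. The log2 fold change was -1.77 at d1, -0.88 at d4 (adjusted p = 0.0218), -4.66 at d10 (SE 0.33, adjusted p = 6.00e-11) and -3.04 at d20 (adjusted p = 6.41e-08), the d10 value being 25.3-fold lower. In between, at d15, the values were 1309.8, 1232 and 1300.0, higher than at d10 by 4.01 (adjusted p = 3.71e-10), and -0.65 against d0 (adjusted p = 0.0785). Without the third d7 library this -0.65 passed (adjusted p = 7.27e-12).

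At d7 NOTCH3 held 2973 and 2634 in the first and second libraries, above d0, and 609 in the third, below it. The arithmetic mean of 2072 ± 1278 lay above the 2013 ± 73.2 of d0, whereas the log2 fold change was -0.26 (limma adjusted p = 0.504). Without the third library it was 0.48 (adjusted p = 2.63e-07), so the direction at d7 rests on that library. The call at d4 was lost without the second d0 library (adjusted p = 0.0534) or the first d4 library (adjusted p = 0.0555).

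NOTCH2 was the receptor with the smallest range. The values were 4281, 4349 and 4380.1 at d0 and 6314, 6745 and 6642 at d20, a log2 fold change of 0.60 (SE 0.05, limma adjusted p = 2.55e-09). On the other days it lay between 0.16 (d4) and 0.44 (d7). With libraries rescaled to an equal total the values at d1, d4 and d15 were 0.04, -0.04 and 0.02 and did not pass. NOTCH2NL, a near-identical partial copy of NOTCH2, is a gene of its own in the table with a mean value of 711, and reads of both can be shared.

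By length, NOTCH2 was the most abundant receptor at d0, d1, d4, d10 and d20. Its ratio to NOTCH1 within a library was 1.94 to 2.13 at d0, 7.14 to 8.08 at d1 and 6.54 to 6.88 at d10. At d15 the ratio was 0.511 to 0.530, so NOTCH1 was there the more abundant of both in all 3 libraries. At d7 the first and second libraries gave 0.609 and 0.623 (in order of size) and the third 3.25. The ratio of NOTCH1 to NOTCH3 was 0.806 at d0 and 0.872 at d1, and from d4 on it was above 1 in all libraries, at 1.44, 2.49, 8.04, 5.55 and 4.88 (middle library, in the order of the days). The d7 ratio ran from 2.40 to 2.53, the third library included, since NOTCH1 and NOTCH3 were lower in it by nearly the same factor.

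**Figure D3:**
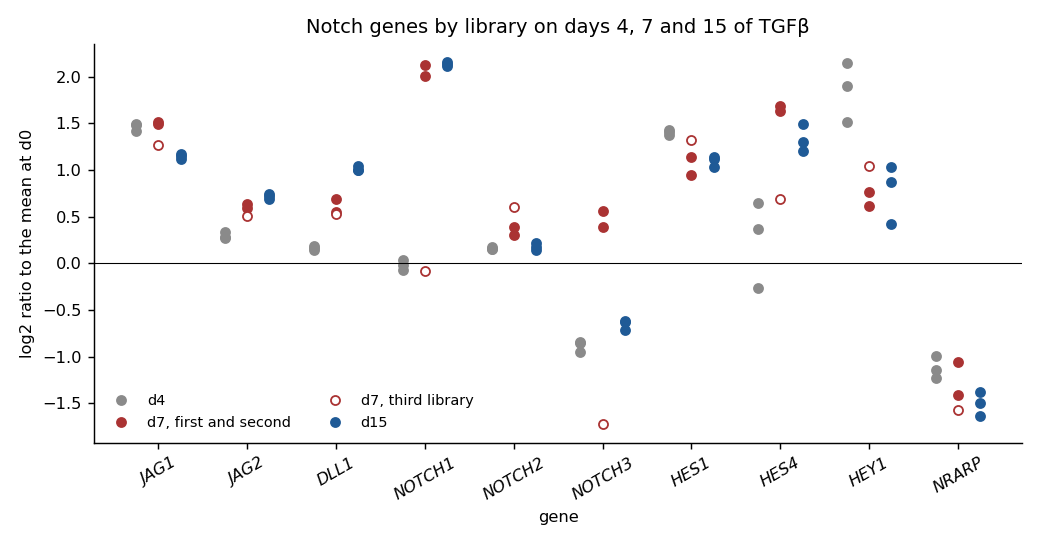
Log2 ratio of each library to the mean at d0 (vertical axis) for the 10 Notch genes (horizontal axis) on d4, d7 and d15. The third d7 library (open red) lies with d4 for NOTCH1 and below all others for NOTCH3, where the other d7 libraries (filled red) are above 0, and it lies close to them for JAG2 and DLL1.

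The third d7 library was 4.44-fold lower than the mean of the others in NOTCH1, 4.61-fold in NOTCH3 and 1.95-fold in HES4. The other 7 members differed by less than 1.3-fold. Over all genes tested, 3.19% were at least 2-fold lower in it and 1.02% at least 2-fold higher. Its summed basal marker level was 375331, against 754678 and 701329 in the other d7 libraries, and its summed proliferation marker level was 43004, against 33434 and 34251. The summed endothelial marker level, mostly from KDR at d7 and d15, was 67.0 in it and 245 and 207 in the others, and it was 268 to 290 at d15 and 22.9 to 23.5 at d10. Over the whole table it was closest to the means of d4 (root mean square 0.427), d20 (0.431) and d1 (0.465). The part of these differences in the Notch values was not tested. In these bulk libraries fewer cells with a transcript and less of it per cell cannot be told apart.

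The targets did not move as a block. HES1, a transcriptional repressor and a classical Notch target, was higher on all 6 days. It went from 309.7, 292 and 252 at d0 to 539.7, 518 and 556 at d1 and 758, 737 and 767 at d4. The mean rose from 285 ± 29.4 to 754 ± 15.2 (SD, n = 3), a log2 fold change of 1.41 at d4 (SE 0.08, limma adjusted p = 2.22e-12), and no treated library overlapped with the untreated ones. It then fell to 399 ± 29.6 at d10 and was back at 608 ± 24.0 at d15, 0.61 higher than at d10 (adjusted p = 8.17e-07). At d20 it was 492 ± 21.6.

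HEY1, a related repressor, had a similar early peak at low counts of 16 to 93 reads. Its values were 14.2, 26.3 and 25.7 at d0 and 97.8, 63.3 and 82.2 at d4. The log2 fold change at d4 was 1.86 (SE 0.22, limma adjusted p = 1.80e-07), and at d7 HEY1 was lower than at d4 by -1.03 (adjusted p = 0.000635). Between d7 and d20 no step passed the test, with means from 30.7 ± 0.774 at d10 to 45.7 ± 8.12 at d20. The d10 call (0.51, adjusted p = 0.0485) was lost by edgeR (adjusted p = 0.122), by DESeq2 (adjusted p = 0.142) and without any 1 of 12 libraries, most without the first d0 library (0.23, adjusted p = 0.349), and the d1 call (0.74) without that library too (adjusted p = 0.0701).

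HES4 was close to its untreated level on most days, with 17 to 72 reads per library. Its values were 22.2, 23.8 and 24.7 at d0, 76.0, 73.0 and 38.2 at d7, and 66.3, 54.3 and 58.0 at d15. All libraries of d7 and d15 lay above the untreated ones. The log2 fold change was 1.30 at d7 (limma adjusted p = 8.97e-05) and 1.30 at d15 (adjusted p = 6.90e-05), and without the third d7 library it was 1.62 at d7. On the other days it lay between -0.14 and 0.36 and did not pass, except that with quantile normalization d10 was 0.61 (adjusted p = 0.0287).

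NRARP, the feedback inhibitor, went the other way. Its values were 181, 198 and 212 at d0, 96.2, 125 and 123 at d1 and 57.2, 40.0 and 48.0 at d20. The highest treated library, at 125, lay below the lowest untreated one. The log2 fold change was -0.78 at d1 (SE 0.15, limma adjusted p = 0.000102), then between -1.11 and -1.49 from d4 to d15, and -2.01 at d20 (adjusted p = 9.35e-11), 4.03-fold lower. Of the steps between timepoints after d1, the 1 that passed was from d15 to d20 (-0.52, adjusted p = 0.00291). The step from d1 to d4 (-0.33, adjusted p = 0.0513) lay at the threshold and passed under 7 alternatives, among them edgeR (-0.36, adjusted p = 0.0266), and without any 1 of 6 libraries. Per kilobase, HES1 exceeded NRARP by 1.34 to 1.92 times at d0, 4.64 to 6.29 times at d1 and 9.31 to 10.3 times at d15.

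**Figure D4:**
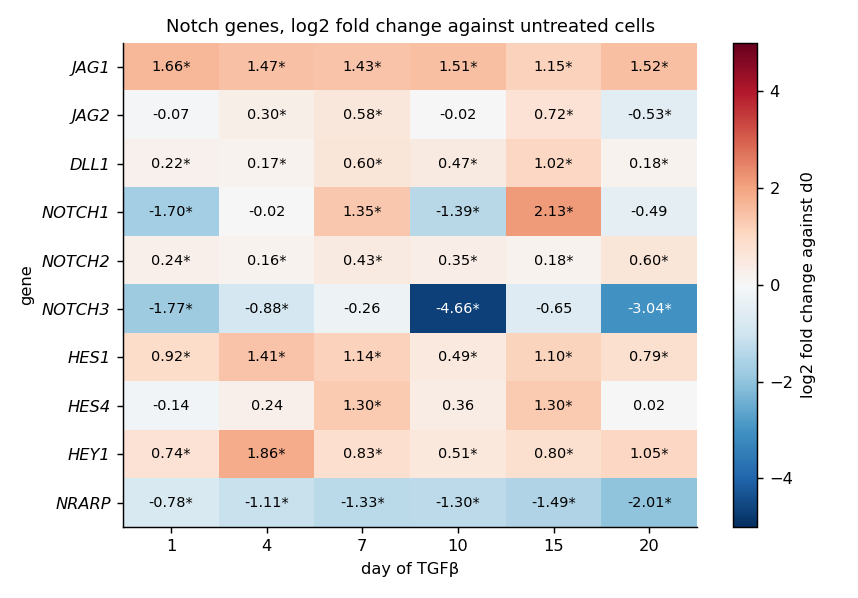
Log2 fold change against d0 (colour and number) of the 10 Notch genes (rows) on each day of TGFβ (columns). An asterisk marks an adjusted p under 0.05 over all genes tested. JAG1 and HES1 are positive and NRARP negative in every column, and NOTCH3 reaches -4.66 at d10.

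In GENCODE 29 (GRCh38), HES1 is at chr3:194136145-194138732 on the plus strand. The others lie on minus strands, with JAG1 at chr20:10637684-10673999, JAG2 at chr14:105140981-105168824, DLL1 at chr6:170282206-170306565, NOTCH1 at chr9:136494433-136545786, NOTCH2 at chr1:119911553-120069626, NOTCH3 at chr19:15159038-15200981, HES4 at chr1:998962-1000172 and NRARP at chr9:137300482-137302251. Promoters of the targets are shown because the RBPJ complex acts on such sites, and HES1 and HES4 rose on some days while NRARP fell. Of the 10 members, 8 had a promoter window in the RefSeq table (GRCh38.p14), and the 250 bases before the start site were searched on both strands. The RBPJ motif GTGGGAA stood in 2 of the 8 windows, HES1 and HES4, and in 5.43% of all 35116 windows of that length. Its core TGGGAA, which lies inside the longer form, was in the same 2 windows and in 20.8% of all. The windows of HES1 (chr3:194135898-194136147, plus strand), HES4 (chr1:1000098-1000347, minus strand) and NRARP (chr9:137302272-137302521, minus strand) read 5′ to 3′ as follows, with the RBPJ core in capitals.
HES1: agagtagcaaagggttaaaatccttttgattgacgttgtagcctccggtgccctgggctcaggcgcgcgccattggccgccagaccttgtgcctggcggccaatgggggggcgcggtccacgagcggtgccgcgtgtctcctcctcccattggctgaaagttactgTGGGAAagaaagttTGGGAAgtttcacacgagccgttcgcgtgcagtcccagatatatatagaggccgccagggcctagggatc
HES4: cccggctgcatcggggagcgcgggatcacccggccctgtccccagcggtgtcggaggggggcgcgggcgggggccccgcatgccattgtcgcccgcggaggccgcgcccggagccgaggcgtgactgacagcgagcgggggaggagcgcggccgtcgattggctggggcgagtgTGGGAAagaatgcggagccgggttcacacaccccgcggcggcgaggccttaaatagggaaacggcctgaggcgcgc
NRARP: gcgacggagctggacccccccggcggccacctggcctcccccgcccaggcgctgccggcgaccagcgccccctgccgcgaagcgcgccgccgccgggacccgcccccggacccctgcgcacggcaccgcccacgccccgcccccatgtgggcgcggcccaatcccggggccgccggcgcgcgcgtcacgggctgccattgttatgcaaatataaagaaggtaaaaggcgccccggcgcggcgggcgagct

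HES1 held cores 84 and 70 bases before its RefSeq start, the first as part of GTGGGAA, and HES4 held GTGGGAA 77 bases before its RefSeq start, both on the strand of the gene. The RefSeq and GENCODE starts differ, and part of the HES4 window lies inside the GENCODE gene. The NRARP window held none of the motifs searched, which says only that these letters are absent there. The HES site known as N-box (CACNAG) was found 3 times in the HES1 window and in 1 place in that of NOTCH3, and it is in 32% of all windows. The SMAD motif CAGAC was in the HES1 window, 170 bases before the start, and in 38% of all windows, and the E-box CACGTG was in none of the 8 (6.34% of all windows). These matches describe sequence and no binding was measured. HES1 and HES4, which share the motif, differed in time course: HES1 was highest at d4 and HES4 at d7 and d15, which did not differ from each other (adjusted p = 0.983).

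From one treated timepoint to the next, the members went mostly in the same direction at a time. From d1 to d4, 5 rose and 1 fell (all genes, 32.9% and 32%), and from d4 to d7, 5 rose and 2 fell (25.5% each). From d7 to d10, 0 rose and 5 fell by limma (36.2% and 35.2%). No member was higher at an unadjusted p under 0.05 either, and edgeR and DESeq2 also gave 0, whereas quantile normalization and the fit without the first d7 library each gave 1. From d10 to d15, 6 rose and 2 fell (39.3% and 40.5%), and from d15 to d20, 2 rose and 7 fell (37.7% and 36.3%). By at least 2-fold, 2 members rose and 0 fell from d1 to d4 (4.19% and 1.98% of all genes), 2 and 1 from d4 to d7 (2.27% and 1.51%), 0 and 2 from d7 to d10 (3.63% and 9.09%), 2 and 0 from d10 to d15 (12% and 10.2%), and 0 and 4 from d15 to d20 (7.55% and 7.43%). The sequence of lower at d10, higher at d15 and lower at d20 held for 5 members, JAG2, NOTCH1, NOTCH3, HES1 and HES4, and for 24.6% of all genes tested. The opposite sequence held for 26.2% of all genes tested. The sequence of the 5 members was not among the planned results, which covered single steps. With quantile normalization HES4 left it (4 members), since its steps to d10 (-0.51, adjusted p = 0.0562) and d15 (0.50, adjusted p = 0.0589) did not pass. From d1 to d4 the members that fell were 3 without the third d7 library and 2 without the first d1, first d4, second d7, or first or second d20 library, and from d4 to d7 they were 1 without the second d7 library. Without the third d7 library DLL1 joined the 5, 6 in all, with 26.5% of all genes. JAG1 and NOTCH2 went against it at d15 and d20, lower at d15 and higher at d20. The summed proliferation marker level also alternated, at 41060 to 42160 at d10, 15768 to 16109 at d15 and 45502 to 47184 at d20, and its part in the Notch values was not tested.

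Over the 7 timepoint means, HES4 ran closest to DLL1 (Pearson r = 0.88), NOTCH1 (0.85) and JAG2 (0.85), and HES1 to HEY1 (0.86). NRARP ran against NOTCH2 (-0.83) and JAG1 (-0.72). These are descriptions over 7 means that share libraries and size factors. The d7 means, here and for the likeness below, include the third library, and no version without it was made. Among 11489 genes with a mean of at least 50, the genes most like NOTCH1 were PACS2 (r = 1.00), C12orf51 (0.99) and HKR1 (0.99), and 134 genes had r of at least 0.95. For NOTCH3 they were S1PR5 (1.00), FGF1 (0.98) and LOC646851 (0.98). For JAG1 they were LRRC8A, ANXA8L2 and ACTN1 (0.99 to 1.00), and for NRARP COBLL1, HOOK1 and RASEF (0.97 to 0.98). JAG2 was closest to ACVR2A, NIPAL2 and DTX3L (0.97 to 0.98), DLL1 to FLYWCH2, SAC3D1 and AES (0.97), and NOTCH2 to ZFYVE26, OST4 and PRKAR1A (0.98 to 0.99). HES1 was closest to C10orf10, LOC100131551 and KLF7 (0.98 to 0.99), HES4 to C16orf5, ZNF324 and TMEM131 (0.98), and HEY1 to DYNC1LI2, MAGED1 and MOSPD2 (0.98 to 0.99).

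The rest of the pathway was described with a list of 50 genes, all of them in the table, 43 of which passed the filter on low values. This list too was chosen with earlier results of these data known. Against d0, 16 of the 43 were higher and 10 lower on d1, 24 and 5 on d4, 25 and 6 on d7, 16 and 13 on d10, 28 and 2 on d15, and 16 and 10 on d20. The shares of all genes on these days were those given for the members, from 31.3% to 39.2% higher and from 28.5% to 37.3% lower. Their median log2 fold change was highest at d15 (0.36) and d4 (0.27) and lowest at d10. With libraries rescaled to an equal total, those lower numbered 20, 12, 14, 26, 11 and 23 in the order of the days. Under that scaling 6692, 6602, 6552, 6741, 6296 and 6778 of all 13343 genes tested were lower on these days. Without the second d7 library 3 of the 43 were lower at d7, and without the second d0 library 6 of the 43 were lower at d20. Higher on all 6 days were 10 of the 43 (14.3% of all genes), and lower on all 6 days was MAML3 (8.26%).

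Of the other receptor and ligands, NOTCH4 rose on every day from a low level. Its values were 32.9, 30.5 and 28.7 at d0 and 363, 359 and 341 at d15, a log2 fold change of 3.49 (SE 0.13, limma adjusted p = 5.35e-16). Per kilobase its d15 level of 52.5 remained below the 148 of NOTCH3 and the 825 of NOTCH1. It overlaps GPSM3 on the same strand, which had a mean value of 87.4. DLL3 was higher at d10 (1.09, adjusted p = 0.00146) with values of 38.8, 49.6 and 44.0 against 19.6, 22.1 and 18.8 at d0. DLL4, DLK1, NEURL1, DTX1, RBPJL, HES5 and HEY2 did not pass the filter, and their highest library held at most 7 reads.

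HEYL, a further HEY repressor, was nearly silent at d0, with 1 read in each library. It held 147 reads in the 3 d20 libraries against 3 at d0, a ratio of 55.7 with an exact 95% counting interval from 18.7 to 273. At d15 the ratio was 43.4 (14.5 to 214). The fitted log2 fold change at d20 was 4.75 (SE 0.41, limma adjusted p = 1.73e-09). HES2 values were 359.5, 322 and 357 at d0, 1691, 1657 and 294 at d7, 144, 152 and 133 at d10 and 1192, 1214 and 1217 at d15. It was higher at d15 (1.80, adjusted p = 0.000176) and lower at d10 (-1.27, adjusted p = 0.00495), and the third d7 library was 5.69-fold below the others. Without that library its log2 fold change at d7 was 2.27. With it HES2 was higher at d7 by 1.44 (adjusted p = 0.00195), but not in a fit of d7 and d0 alone (adjusted p = 0.0773). HES7 was lower at d7 (-1.11, adjusted p = 3.12e-06).

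Among the fringe glycosyltransferases, which modify the receptors and tune their response to ligands, LFNG had a d7 peak. Its values were 287, 324 and 328 at d0 and 1128, 1139.5 and 1062 at d7, a log2 fold change of 1.82 (SE 0.07, limma adjusted p = 2.18e-15). The third d7 library lay with the others for this gene. RFNG was higher at d15 by 1.21 (adjusted p = 9.16e-15) and overlaps GPS1 on the opposite strand. MIB2, a ubiquitin ligase that acts on ligands, was higher at d15 by 1.58 (adjusted p = 3.02e-10), and the mean went from 369 ± 15.5 to 1102 ± 51.2. Of the 5 glycosyltransferases 3 were higher and none lower at d15, of the 3 ligand endocytosis genes tested 3 and none, and of the 8 turnover genes tested 7 and none, on a day when 39.2% of all genes were higher and 37.3% lower.

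In the nucleus, RBPJ itself changed little, with log2 fold changes from -0.11 to 0.15. The coactivators went apart. MAML2 was higher on all 6 days, by 1.37 at d4 (adjusted p = 2.38e-11), and MAML3 was lower on all 6, by -1.92 at d10 (adjusted p = 4.48e-08), with 92.5, 96.7 and 114 at d0 and 25.9, 25.3 and 26.4 at d10. DTX4, a Deltex ubiquitin ligase, was lower at d10 by -1.84 (adjusted p = 7.04e-14) and higher at d15 by 0.43 (adjusted p = 0.000133).

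Of the 43 genes, 14 were called with at least a 2-fold change on at least 1 day, FURIN and FBXW7 among them. The share of all genes called so on at least 1 day was not computed, so this count has nothing to be set against. On d15 alone 8 of the 43 were at least 2-fold higher and 1 lower, beside 11.7% and 8.66% of all genes. FURIN, the protease that cuts the receptor precursor, was higher on all 6 days, most at d1 (1.03, limma adjusted p = 3.74e-13). FBXW7, which marks the receptor's intracellular domain for degradation, was higher at d15 (1.07, adjusted p = 4.25e-08) and lower at d10 (-0.28, adjusted p = 0.046) and d20 (-0.32, adjusted p = 0.0224). The protease ADAM10 was higher on all 6 days by 0.14 to 0.38, and of the 9 cleavage genes FURIN alone was called at 2-fold. The sequence of lower at d10, higher at d15 and lower at d20 held for 18 of the 43 genes and for 24.6% of all genes tested.

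**Figure D5:**
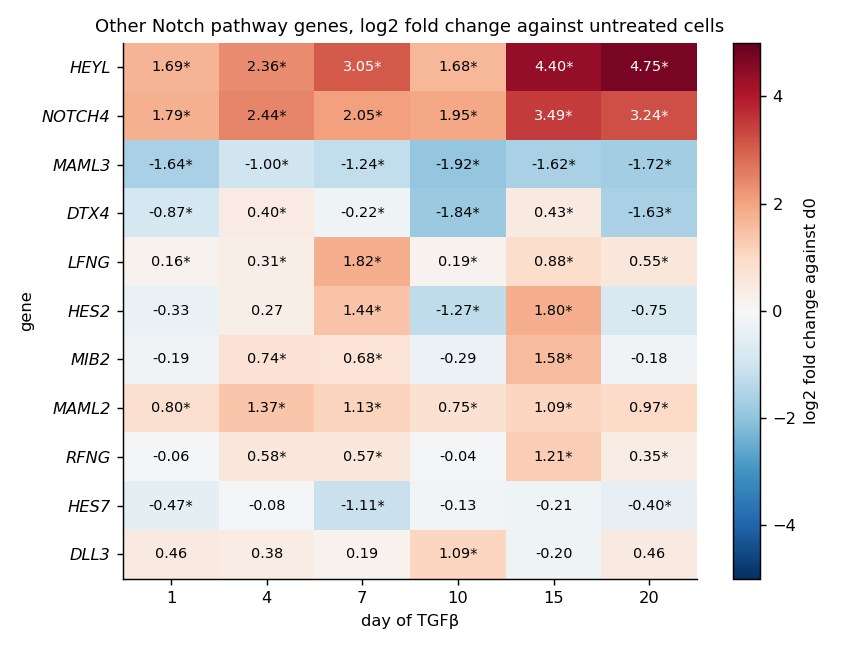
Log2 fold change against d0 (colour and number) of other Notch pathway genes named in the text (rows) on each day of TGFβ (columns). An asterisk marks an adjusted p under 0.05 over all genes tested. HEYL and NOTCH4 are positive on all days and reach 4.75 and 3.49, MAML3 is negative on all days, and DTX4 and HES2 change sign.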

How the data were processed

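The authors deposited a table of 23201 gene symbols by 21 columns, 3 for each of 7 timepoints, whose values are a normalised signal: the reads of each gene divided by 1 size factor per library and rounded to 2 decimals. The submitters' processing notes name STAR 2.7, Salmon 1.4 and hg19, with no role or order, and the paper states no test for these libraries. The columns name a timepoint and no replicate number, so libraries were numbered in file order and not paired. The paper calls them biological triplicates. Dividing by the size factor step gave whole reads for 100% of values, with totals of 18847917 to 22667754, which also sets the counting precision. The tolerance was about 0.005 in units of the value plus a part that grew with the value, so the highest values could not fail. The intervals of the HEYL ratios and the floor of 3 reads cover only the error of counting. The intervals of log2 fold changes come from the limma fit and its spread between libraries.

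Genes with a mean value of 10 or more (13343) entered 1 limma fit (version 3.58.1, R 4.3.3) of log2(value + 1) with a mean per timepoint and moderated variances (trend), with Benjamini-Hochberg adjustment within each contrast at 0.05. The fit was tested on simulated data. Fold changes on this scale understate those of low genes. Alternatives were a pseudocount of 10, no filter, rescaling to the same total, quantile normalization, TMM, the 2 groups alone, library weights, edgeR 4.0.16 and DESeq2 1.42.0 on the recovered reads, a 2-fold minimum, and each library left out. At least 2-fold at an adjusted p under 0.05, edgeR called 1528 genes higher and 1218 lower at d15 and DESeq2 1571 and 1168, against 1560 and 1155 by limma. Leaving out libraries of timepoints not compared was added after seeing the data.

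All members are named, with the 12 other pathway genes of the largest fold change among those called at least 2-fold on a day (1 of them is not reported here), and the 3 genes most like each member. Members and lists were chosen with earlier results of these data known. Lengths and overlaps came from GENCODE 29, and promoter windows from RefSeq (GRCh38.p14). Python 3.11.15 and matplotlib 3.10.9 drew the figures.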

Additional observations from a re-analysis of the deposited data

Results flagged for a closer look

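Higher than untreated cells on 1 treated day and lower on another were 2 of the 10 members and 14 of the 43 other pathway genes tested. The same held for 28.7% of all genes tested. Without the third d7 library it held for 3 members, NOTCH3 joining JAG2 and NOTCH1, for 17 of the 43 and for 34.6% of all genes. NOTCH3 was not compared between days in this way. The difference between the days is given for the members and for those of the pathway genes named in the report (limma, all 7 timepoints in the fit), and the other pathway genes were not compared in this way. JAG2 was higher than d0 at d15 and lower at d20, and the days differed by 1.25 on the log2 scale (SE 0.04, adjusted p = 7.85e-16, range over the alternatives 1.20 to 1.33). NOTCH1 was higher at d15 and lower at d1, with a difference of 3.83 (SE 0.32, adjusted p = 5.72e-10, 3.81 to 3.90). DTX4 was higher at d15 and lower at d10, with a difference of 2.27 (SE 0.09, adjusted p = 1.64e-15, 2.17 to 2.37). HES2 was also higher at d15 and lower at d10, with a difference of 3.07 (SE 0.37, adjusted p = 1.63e-07, 2.99 to 3.14). FBXW7 was higher at d15 and lower at d20, and the step between them was -1.40 (SE 0.12, adjusted p = 9.55e-10). In each of the first 4 genes 3 of 3 libraries of the higher day lay above those of the lower day. The test for a sample far from the others needs at least 4 samples and was not run on groups of 3.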

How the results depend on the processing

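No paired analysis was possible because column names give only a timepoint, with no replicate number. Of the log2 fold changes of single genes, 1639 kept direction and side of the threshold under alternatives other than leaving out a library and 3724 when a library was left out, and 112 and 62 no longer passed. The direction was reversed in 21 and 10, and 48 and 26 passed only under the alternative. The 3724 include libraries of timepoints not compared. Leaving these out cannot move the log2 fold change, only its standard error and adjusted p, so 3724 overstates how far the values were tried. With at least 2-fold required, members higher and lower against d0 were 1 and 2, 3 and 1, 4 and 1, 1 and 3, 5 and 1, and 2 and 2 in the order of the days, and in the steps 2 and 0, 2 and 1, 0 and 2, 2 and 0, and 0 and 4. The pathway genes were then 3 and 1, 4 and 0, 6 and 2, 3 and 3, 8 and 1, and 2 and 2. With libraries rescaled to an equal total, members higher at d1 were 3, lower at d15 2, lower from d1 to d4 2 and lower from d10 to d15 1, pathway genes lower were 20, 12, 14, 26, 11 and 23 from d1 to d20 and higher at d10 8, members higher on all days were 2, and pathway genes higher on all days were 6 and lower on all days 5. Of all 13343 genes tested, 6692, 6602, 6552, 6741, 6296 and 6778 were lower under this rescaling from d1 to d20. Under this rescaling DLL1 was -0.0296 at d4 and -0.0165 at d20, NOTCH2 -0.0352 at d4, HES4 -0.17 at d20, NRARP -0.0035 from d7 to d10, and LFNG -0.0281 at d1 and -0.0403 at d10. With quantile normalization members lower from d1 to d4 were 2 and higher from d7 to d10 1, pathway genes lower were 9 at d4, 5 at d15 and 16 at d20, and those higher on all days were 6. JAG1 was then -0.0331 and HEY1 0.11 from d7 to d10, HEY1 -0.15 and NOTCH2 0.006 from d10 to d15, HES4 -0.012 at d20 and DLL3 -0.0024 at d7. Members higher on all days were 3 with no filter, quantile normalization, TMM, edgeR and DESeq2. Members lower at d15 were 2 in the fit of 2 groups, with library weights and by edgeR, and lower from d1 to d4 2 with a pseudocount of 10, TMM and edgeR and 3 in the fit of 2 groups and with weights. In the fit of 2 groups members lower from d4 to d7 were 1 and pathway genes lower at d7 3. With library weights JAG1 was 0.0231 and NRARP 0.0053 from d4 to d7, NOTCH2 0.0166 and NRARP -0.18 from d7 to d10, HES4 -0.0401 at d20, and NOTCH3 0.36 at d7 (limma adjusted p = 0.00162), where edgeR gave 0.0145 and DESeq2 0.0407. With 1 library left out, members lower ranged from 1 to 2 at d4, d15 and from d4 to d7, and from 1 to 3 from d1 to d4, members higher from d7 to d10 from 0 to 1, members higher on all days from 3 to 5, and pathway genes lower from 3 to 7 at d7 and from 6 to 14 at d20. JAG1 from d4 to d7 then ranged from -0.0876 to 0.0388, DLL1 from d1 to d4 from -0.11 to 0.0231, NOTCH1 at d4 from -0.0449 to 0.0101, NOTCH3 at d7 from -0.67 to 0.48, HES4 at d20 from -0.12 to 0.19, NRARP from d7 to d10 from -0.0803 to 0.18 and DLL3 at d15 from -0.50 to 0.23. The cause of these changes was not tested. HES4 and HEY1 rest on under 100 reads per library, which limits what their small differences can show.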
